A study of Mus musculus with 15 samples.

Results

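Activated B cells (actB) cultured with the EZH2 inhibitor GSK343 were compared with actB cultured with its vehicle, DMSO, by RNA-seq. All genes with a symbol in the deposited expression table were taken, 21669 in number. Of these, 11299 reached 1 RPKM (reads per kilobase of gene, scaled to the reads of the library) in at least 3 of the 15 libraries of the series and were tested. The comparison used 6 of those 15 libraries, 3 with DMSO and 3 with GSK343. In every group, resting B cells had been isolated by CD43 depletion from spleens of young adult female C57BL/6J mice that the labels call wild-type. Both actB groups were cultured ex vivo for 3 days with LPS, Il2 and Il5 and sorted as B220+GL7+CD138- cells, so that they differed in the labels only in the drug. The labels do not state how many animals stand behind a library, and titles number the libraries m1 to m3 within each group. GSK343 and DMSO libraries of the same number were treated as pairs, as set in advance. Those numbered 1 and 2 deviated together, while those numbered 3 did so no more than libraries of unlike number. Plasmablasts (Pb), the CD138+ cells of such cultures, served as a comparison in 6 further libraries.

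EZH2 is the catalytic subunit of Polycomb repressive complex 2 (PRC2), which places methyl groups on lysine 27 of histone H3. The trimethylated form, H3K27me3, is found at silent or weakly expressed promoters and is bound by other Polycomb proteins that keep them so. EZH2 is abundant in dividing and germinal centre B cells, where it is known to hold back plasma cell genes and inhibitors of the cell cycle, and GSK343 blocks its enzymatic activity without removing the protein.

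At an adjusted p under 0.05 in limma (moderated test with the replicate number as a block, fitted on log2(RPKM + 0.25)), 1663 genes were higher with GSK343, 14.7% of those tested, and 705 were lower, 6.24%. Most changes were small. Genes that rose had a median log2 fold change of 0.32 and 77 of them changed by at least 1, while genes that fell had a median of -0.25 and 10 of them changed by at least 1. The genes that rose were expressed at lower levels, with a median of 6.71 RPKM with DMSO against 24.5 RPKM for the genes that fell and 11.4 RPKM for all genes tested. Below 2 RPKM with DMSO lay 23.9% of the genes that rose, 6.24% of those that fell and 15.3% of all tested. Without the block, 891 genes were higher (7.89%) and 227 lower (2.01%), and all 1118 are among those called with it. The share of calls that were higher, 70.2%, depended on how libraries were scaled, and was 53.9% with median scaling, 53.4% with quantile normalization and 49.0% with edgeR's TMM factors. In these bulk samples, fewer cells of a type and less RNA of a gene per cell cannot be told apart.

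**Figure D1:**
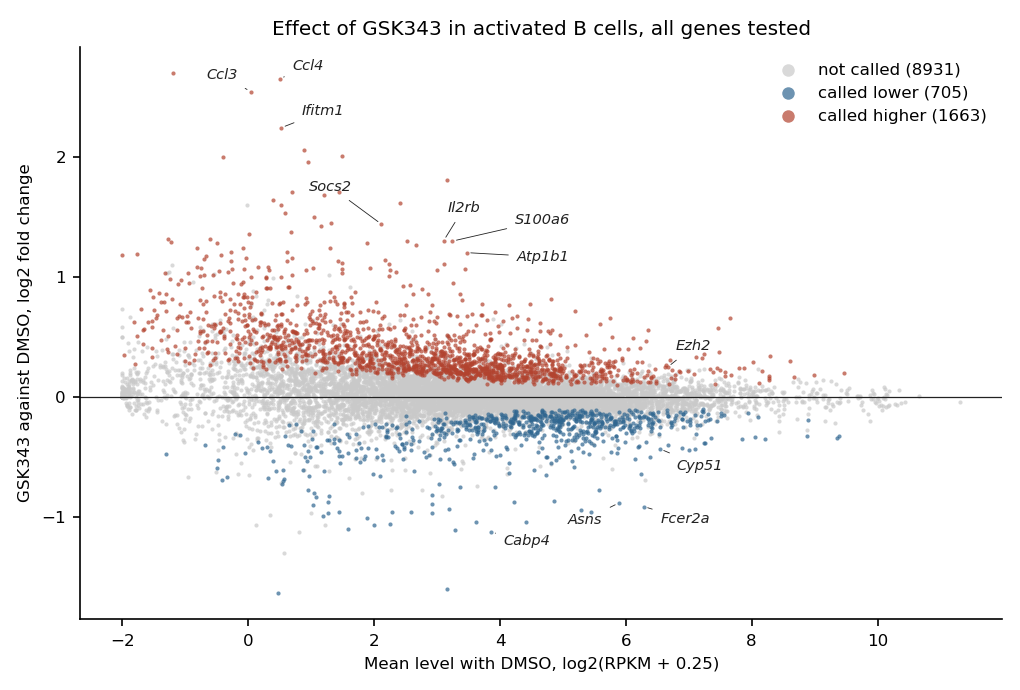
Log2 fold change of GSK343 over DMSO in actB (vertical axis, on log2(RPKM + 0.25)) against the mean level with DMSO (horizontal axis, log2(RPKM + 0.25)) for the 11299 genes tested, with the 1663 genes called higher and the 705 called lower marked apart from the rest. The largest rises lie at the low end of the level axis, and the called falls sit further to the right.

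The 6 libraries held 23511949 to 26307413 reads, and 5316 genes with a symbol had no read in any of them. B cell identity genes were abundant in both groups. *Cd79a*, a signalling chain of the B cell receptor, was present at 544, 617 and 555 RPKM with DMSO and 519, 567 and 534 RPKM with GSK343. Its levels overlapped between groups, and neither it nor *Ms4a1*, *Cd79b* or *Ptprc* passed the test. The libraries numbered 2 stood apart from those numbered 1 and 3 with either treatment, with higher levels of interferon-stimulated genes, given below beside the results they touch. *Ezh2* itself, at chr6:47480273-47545340 in the mm9 mouse genome, lay at 103, 94.3 and 106 RPKM with DMSO and 128, 106 and 127 RPKM with GSK343 (log2 fold change 0.25 ± 0.04, adjusted p = 0.00474 in limma, and adjusted p = 0.0914 without the block). It was higher with GSK343 in 3 of 3 pairs, although the groups overlapped, since the replicate 2 library with GSK343 lay at the level of the replicate 3 library with DMSO. Of 11 genes of PRC2 subunits and cofactors it was the 1 member called, beside 14.7% higher and 6.24% lower of all genes. With median scaling or quantile normalization 1 member was higher and 1 lower, and in edgeR with the block 1 was higher and 2 lower. Without the block none was called in limma or in edgeR. *Ezh1*, the alternative catalytic subunit, was at 6.41, 7.78 and 6.36 RPKM with DMSO and 6.5, 8.28 and 7.47 RPKM with GSK343 (adjusted p = 0.229 in limma).

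Among genes with a mean of at least 3 RPM in an actB group, the largest rises were in a pair of chemokine genes that lie side by side on chromosome 11. *Ccl4* (chr11:83476086-83478185 in mm9), which encodes a chemoattractant for T cells and monocytes, was measured at 1.05, 0.858 and 1.59 RPKM with DMSO and 9.02, 5.71 and 11.6 RPKM with GSK343, and *Ccl3* (chr11:83461346-83462857), its close relative, at 0.843, 0.594 and 0.895 RPKM with DMSO and 6.14, 4.01 and 7.38 RPKM with GSK343. Every GSK343 library lay far above every DMSO library for both genes (log2 fold change 2.65 ± 0.10, adjusted p = 4.12e-06 for *Ccl4* and log2 fold change 2.54 ± 0.11, adjusted p = 7.78e-06 for *Ccl3*). *Ifitm1*, a membrane protein that hinders virus entry, stood at 1.06, 1.68 and 0.833 RPKM with DMSO and 4.72, 10.3 and 5.2 RPKM with GSK343, a 4.72-fold rise (log2 fold change 2.24 ± 0.10, adjusted p = 7.78e-06). Its rise went against the direction of most interferon-stimulated genes described below, and it was the 1 of 4 tested *Ifitm* genes that was called.

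Several of the other large rises were in genes better known from myeloid cells, neurons or epithelia. *Myo1f*, a motor protein of white blood cells, was at 1.83, 2.26 and 2.07 RPKM with DMSO and 6.9, 6.99 and 7.41 RPKM with GSK343, and *Gas7*, which organises actin at the membrane, at 1.46, 1.9 and 1.44 RPKM with DMSO and 7.83, 8.22 and 6.2 RPKM with GSK343. In both genes the groups were fully separate. *Shank1*, a scaffold of synapses, reached 2.22, 3.22 and 2.27 RPKM with DMSO and 10.6, 11.8 and 10.4 RPKM with GSK343. The secreted products on this list were *Osm*, a cytokine of the interleukin-6 family (log2 fold change 1.7 ± 0.24, adjusted p = 0.00221), and *Pltp*, which transfers phospholipids between lipoproteins (log2 fold change 1.95 ± 0.17, adjusted p = 0.000351). *Tmem176a* and *Tmem176b*, neighbouring genes for membrane proteins, rose by similar amounts, 1.64 and 1.71 on the log2 scale. Their order between libraries was alike too, with the replicate 2 library highest in each group. *Emp1*, a membrane protein of epithelia, had the lowest starting level of the 14 largest rises, with 0.477, 0.527 and 0.524 RPKM with DMSO and 3.37, 2.0 and 3.15 RPKM with GSK343. All 14 had GSK343 libraries wholly above DMSO libraries, as did 18.3% of all genes tested, and this separation was part of how they were chosen. Each remained called without any 1 of the 6 libraries and without the block.

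**Figure D2:**
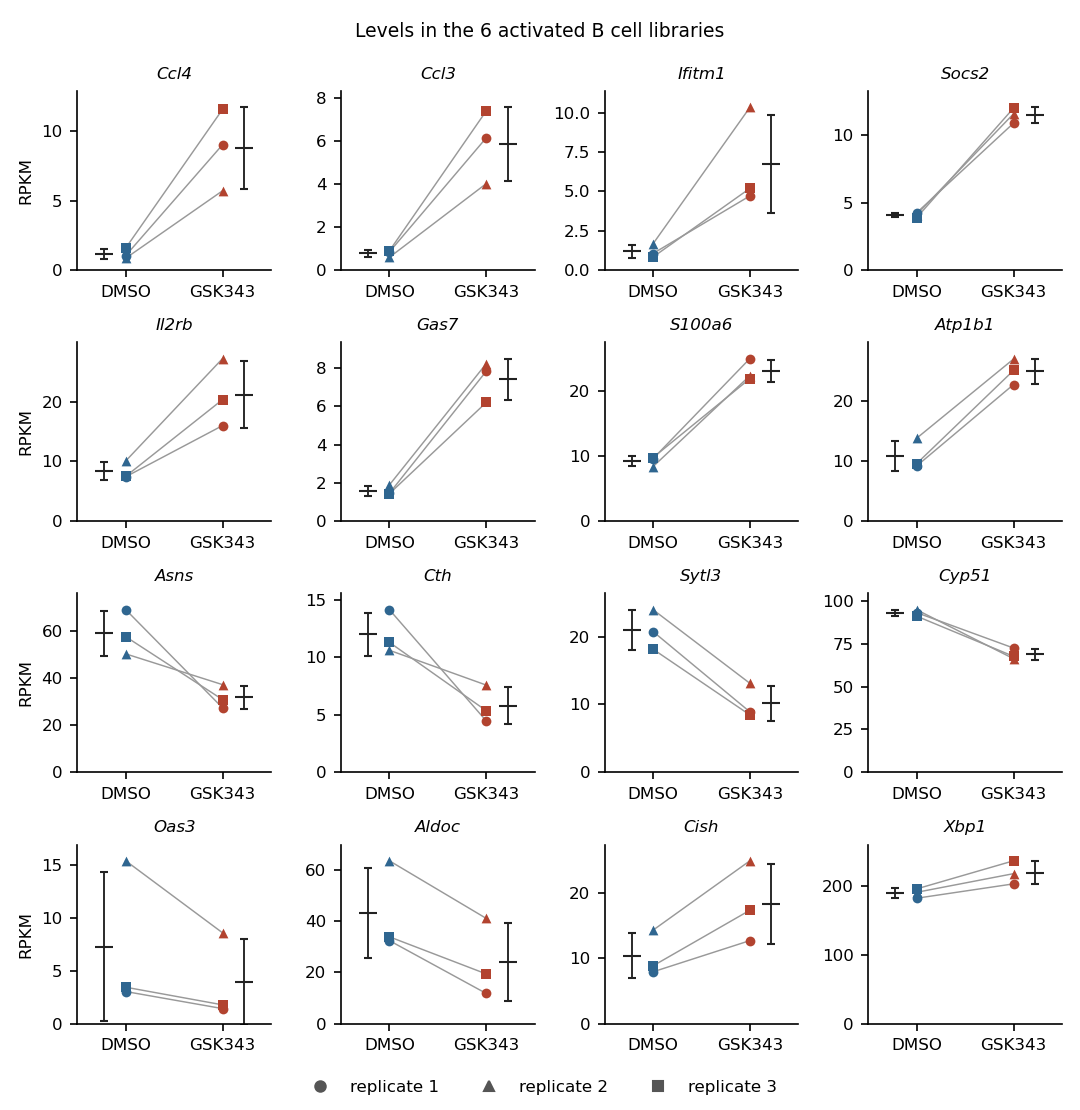
RPKM (linear axes from 0) in each of the 6 actB libraries for 16 genes, DMSO beside GSK343, with a marker shape and a line for each replicate number and the mean with its SD (n = 3) beside them. *Ccl4* lies between 0.858 and 1.59 RPKM with DMSO and between 5.71 and 11.6 RPKM with GSK343, whereas for *Oas3* and *Aldoc* the replicate 2 libraries lie above the rest in both groups.

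Feedback inhibitors of cytokine signalling were often called higher. Members of the SOCS family are induced by STAT factors downstream of cytokine receptors and in turn block the receptors' kinases. All 8 members were tested, 6 rose and none fell, beside 14.7% higher of all genes, and the median log2 fold change was 0.57 against 0.028 for all genes tested. *Socs2*, at chr10:94847996-94879814 in mm9, showed the tightest change, with 4.25, 4.12 and 3.88 RPKM with DMSO and 10.9, 11.6 and 12 RPKM with GSK343 (log2 fold change 1.44 ± 0.05, adjusted p = 4.12e-06). All GSK343 libraries exceeded all DMSO libraries by a wide margin. *Socs3*, the inhibitor of interleukin-6 type receptors, was at 44.5, 67.1 and 48.2 RPKM with DMSO and 88.2, 84.3 and 76.3 RPKM with GSK343 (log2 fold change 0.66 ± 0.12, adjusted p = 0.00584), and *Socs5* at 1.5, 2.59 and 1.76 RPKM with DMSO and 3.17, 3.8 and 3.28 RPKM with GSK343 (log2 fold change 0.76 ± 0.11, adjusted p = 0.00222). Both were fully separate between groups. *Cish*, which is induced by STAT5 and restrains interleukin-2 signalling, was at 7.9, 14.3 and 8.81 RPKM with DMSO and 12.7, 24.8 and 17.3 RPKM with GSK343 (log2 fold change 0.80 ± 0.10, adjusted p = 0.00149). *Socs1*, the inhibitor of interferon receptors, was at 9.74, 21 and 11.8 RPKM with DMSO and 15, 29 and 15.3 RPKM with GSK343 (log2 fold change 0.48 ± 0.06, adjusted p = 0.00194). For these 2 genes the replicate 2 library with DMSO lay within the range of the GSK343 libraries, so the groups overlapped, yet each gene was higher in 3 of 3 pairs; without the block they were not called (adjusted p = 0.0856 without the block for *Cish* and 0.485 for *Socs1*). *Socs7* passed at a log2 fold change of 0.15 and was lost when any 1 of the 6 libraries was left out (adjusted p from 0.0648 to 0.148) and without the block (0.183).

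The promoter of *Cish* is shown because it holds a repeated STAT-type motif. The window runs from 250 bases before to 50 bases after the RefSeq start (chr9:107296409-107296708, plus strand, GRCm38.p6), and capitals mark both matches to TTCNNNGAA, which reads the same on both strands.
Cish: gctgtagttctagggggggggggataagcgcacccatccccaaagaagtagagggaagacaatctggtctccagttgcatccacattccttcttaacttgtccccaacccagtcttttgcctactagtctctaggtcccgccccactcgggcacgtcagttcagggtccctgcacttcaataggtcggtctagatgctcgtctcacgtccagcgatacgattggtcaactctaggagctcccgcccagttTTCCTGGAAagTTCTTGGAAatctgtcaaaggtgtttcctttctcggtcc
The matches lie at bases 251 to 270 of the window, close together and just past the annotated start. The motif was found in 2 of the 4 SOCS promoters with a window, those of *Cish* and *Socs3*, and in 9.55% of the 27025 mouse genes with a window. These matches describe the letters only, and no binding was measured.

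Of 32 receptors for cytokines and tumour necrosis factor (TNF) family ligands, 7 were higher and none lower, beside 14.7% and 6.24% of all genes (median 0.18). Without the replicate 3 library with DMSO, 4 were higher. *Il2rb*, the beta chain shared by the interleukin-2 and interleukin-15 receptors, rose 2.46-fold, from 7.44, 10.1 and 7.52 RPKM to 16, 27.2 and 20.4 RPKM (log2 fold change 1.3 ± 0.07, adjusted p = 3.06e-05). No GSK343 library was as low as the highest DMSO library. The culture medium held Il2, a ligand of this receptor. *Tnfrsf8*, which encodes the activation marker CD30, was at 6.22, 6.52 and 5.5 RPKM with DMSO and 11.5, 19 and 15.1 RPKM with GSK343 (log2 fold change 1.26 ± 0.11, adjusted p = 0.000402), again without overlap. *Csf2rb2*, a beta chain of the interleukin-3 receptor, was at 4.94, 6.6 and 4.7 RPKM with DMSO and 8.17, 10.4 and 9.26 RPKM with GSK343 (log2 fold change 0.76 ± 0.07, adjusted p = 0.000487). It is nearly identical to *Csf2rb*, which was also called higher, and how reads were shared between the copies is not stated.

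Genes for migration and adhesion were often called higher, read against the background of 14.7%. Of 19 chemokine and homing receptors, 7 were higher and 1 lower (median 0.31). Receptors for tissue homing and egress rose, and the receptor for entry into follicles fell. *Ccr10*, the receptor that guides plasma cells to mucosa, lay at 0.466, 0.289 and 0.334 RPKM with DMSO and 1.12, 1.01 and 1.16 RPKM with GSK343 (log2 fold change 1.15 ± 0.09, adjusted p = 0.000283), and *Ccr9*, the gut homing receptor, at 0.422, 0.215 and 0.323 RPKM with DMSO and 0.98, 0.665 and 1.25 RPKM with GSK343 (log2 fold change 1.08 ± 0.12, adjusted p = 0.000842). Both were near or below 1 RPKM even with GSK343, and their groups did not overlap. *S1pr1*, which lets lymphocytes leave lymphoid organs, was at 4.07, 3.63 and 4.18 RPKM with DMSO and 6.14, 5.25 and 6.6 RPKM with GSK343 (log2 fold change 0.57 ± 0.06, adjusted p = 0.000545). *Cxcr5*, which draws B cells into follicles, fell in all 3 pairs, from 108, 132 and 115 RPKM to 81.2, 97.8 and 84.5 RPKM (log2 fold change -0.43 ± 0.06, adjusted p = 0.00186, and adjusted p = 0.0678 without the block). The groups were separate for both *S1pr1* and *Cxcr5*.

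Among 28 integrins and adhesion molecules, 10 were higher and 1 lower (median 0.21), with 5 higher without the replicate 1 library with DMSO and 6 without the replicate 3 library with GSK343. *Itgam*, the alpha chain of the complement receptor CR3, was at 4.66, 3.5 and 4.65 RPKM with DMSO and 12.8, 6.6 and 10.5 RPKM with GSK343 (log2 fold change 1.14 ± 0.15, adjusted p = 0.002). *Itgb7*, whose product pairs with the alpha-4 chain in gut homing, was at 4.49, 4.75 and 5.33 RPKM with DMSO and 9.6, 10.4 and 10.8 RPKM with GSK343 (log2 fold change 1.04 ± 0.16, adjusted p = 0.00323). Neither gene overlapped between groups. *Pecam1*, the adhesion receptor CD31, went the other way (log2 fold change -0.34 ± 0.07, adjusted p = 0.00887, and adjusted p = 0.106 without the block), with the replicate 2 library with GSK343 inside the DMSO range.

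Regulators of actin filaments had 11 of 30 tested genes higher and none lower, beside 14.7% and 6.24% of all genes, with a median of 0.11. The calcium-binding proteins *S100a4* and *S100a6*, which act on the cytoskeleton and on migration, led the list. *S100a6* was measured at 9.58, 8.36 and 9.74 RPKM with DMSO and 24.9, 22.3 and 21.8 RPKM with GSK343 (log2 fold change 1.3 ± 0.14, adjusted p = 0.00094), and *S100a4* at 1.61, 0.747 and 1.4 RPKM with DMSO and 4.72, 2.93 and 4.43 RPKM with GSK343 (log2 fold change 1.53 ± 0.30, adjusted p = 0.00888). *Ahnak*, a very large scaffold under the plasma membrane, was at 5.7, 5.41 and 5.33 RPKM with DMSO and 16.8, 10.9 and 14.4 RPKM with GSK343 (log2 fold change 1.3 ± 0.12, adjusted p = 0.000476). All 3 were separate between groups. *Gsn*, which severs actin filaments, had a log2 fold change of 0.77 ± 0.12 (adjusted p = 0.00346 in limma, and 0.0759 without the block). Ion pumps and channels gave 8 higher and 1 lower of 21 (median 0.16), and 5 higher without the replicate 3 library of either group. *Atp1b1*, the beta subunit of the sodium pump, was at 9.17, 13.8 and 9.56 RPKM with DMSO and 22.7, 26.9 and 25 RPKM with GSK343 (log2 fold change 1.2 ± 0.13, adjusted p = 0.00094), and *Kcna3*, the voltage-gated potassium channel of lymphocytes, at 15.5, 17.1 and 16.3 RPKM with DMSO and 21.7, 22.4 and 20.9 RPKM with GSK343 (log2 fold change 0.41 ± 0.06, adjusted p = 0.00364). Neither overlapped between the treatments.

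Further signalling lists shared this direction, read against 14.7% higher and 6.24% lower of all genes. Of 23 genes of MAPK feedback, 7 were higher and 1 lower (median 0.22). *Dusp10*, a phosphatase of the stress kinases JNK and p38, was at 5.03, 3.62 and 4.71 RPKM with DMSO and 11, 7.0 and 9.82 RPKM with GSK343 (log2 fold change 1.0 ± 0.15, adjusted p = 0.00304), and *Dusp2* (log2 fold change 0.71 ± 0.13, adjusted p = 0.00592) and *Dusp5* (log2 fold change 0.63 ± 0.08, adjusted p = 0.00189), phosphatases of ERK, rose with it. The member called lower, *Dusp6*, is a phosphatase of ERK too, so these did not all move one way. Its call was lost without any 1 library other than the replicate 2 library with GSK343. Of 20 genes of the TGF-beta and BMP pathway, 7 were higher and 1 lower (median 0.16). *Id2*, an inhibitor of E proteins that BMP signals induce, was at 19, 24.6 and 22.3 RPKM with DMSO and 30.5, 42.4 and 40.7 RPKM with GSK343 (log2 fold change 0.77 ± 0.11, adjusted p = 0.00229), with no overlap. Its relative *Id3*, in the same list, went the other way (-0.65) and was not called. *Ski*, a repressor of SMAD proteins, was at 2.3, 1.96 and 2.34 RPKM with DMSO and 3.74, 3.25 and 3.6 RPKM with GSK343 (log2 fold change 0.63 ± 0.08, adjusted p = 0.00155), while *Tgif1*, another SMAD co-repressor, fell (log2 fold change -0.46 ± 0.06, adjusted p = 0.00211). The members that moved therefore included both activators of the pathway, such as the receptor *Tgfbr1*, and its inhibitors. In the Wnt and Notch lists, 5 of 18 were higher and none lower (median 0.17), and 3 were higher without the block, without the replicate 3 library with DMSO or without the replicate 1 library with GSK343. *Hes1*, a direct Notch target, was at 2.15, 1.57 and 2.41 RPKM with DMSO and 3.96, 2.8 and 3.4 RPKM with GSK343 (log2 fold change 0.67 ± 0.10, adjusted p = 0.00251), and *Rbpj* (log2 fold change 0.33 ± 0.06, adjusted p = 0.0058) and the Wnt co-receptor *Lrp6* (log2 fold change 0.35 ± 0.05, adjusted p = 0.0034) rose by less. Semaphorins, plexins and ephrins, guidance molecules of axons and immune cells, gave 5 higher and 2 lower of 15.

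*Sema6d* was at 5.22, 4.26 and 5.66 RPKM with DMSO and 15.4, 14.5 and 17.8 RPKM with GSK343 (log2 fold change 1.61 ± 0.08, adjusted p = 9.48e-06) and *Sema4a* at 0.923, 1.46 and 1.18 RPKM with DMSO and 4.1, 4.42 and 3.67 RPKM with GSK343 (log2 fold change 1.6 ± 0.11, adjusted p = 9.14e-05). Of their receptor family, the plexins, *Plxna3* was higher, at 1.32, 1.46 and 1.18 RPKM with DMSO and 2.54, 3.04 and 2.56 RPKM with GSK343 (log2 fold change 0.92 ± 0.08, adjusted p = 0.000366). In all 3 of these guidance genes the lowest GSK343 library was above the highest DMSO library. Among the other plexins, *Plxnb2* was called higher (log2 fold change 0.55) and *Plxnd1* lower (-0.29). The call of *Plxnd1* was lost without the replicate 1 or 2 library with DMSO or the replicate 1 or 3 library with GSK343. *Epha2*, an ephrin receptor, fell, with 1.61, 3.07 and 1.41 RPKM with DMSO and 0.73, 1.33 and 0.599 RPKM with GSK343 (log2 fold change -0.99 ± 0.19, adjusted p = 0.00863).

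**Figure D3:**
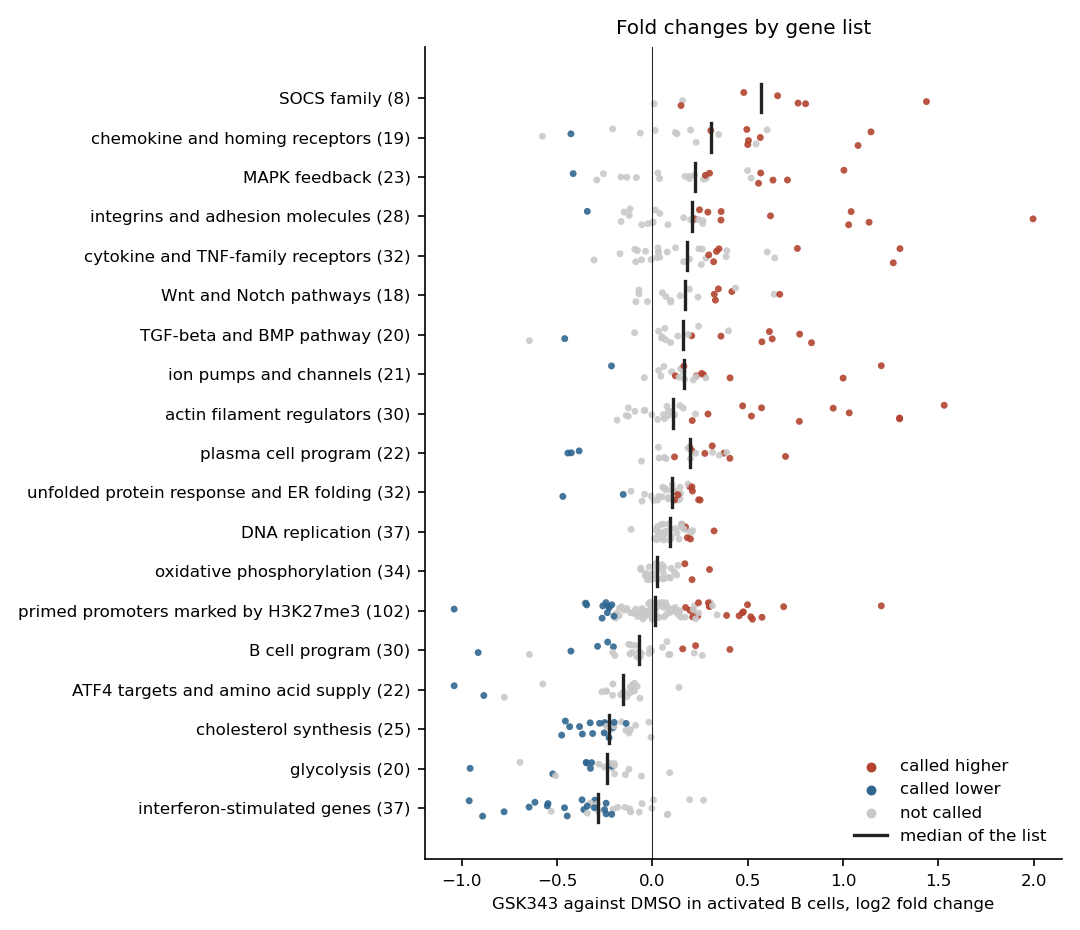
Log2 fold change of GSK343 over DMSO in actB for each tested member of 19 gene lists (points, called members marked apart) and the list medians (bars), on log2(RPKM + 0.25). The SOCS family has the highest median, 0.57, and the interferon list the lowest, -0.29.

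At that level of expression, the genes that fell most included *Sytl3*, an effector of vesicle transport, at 20.7, 24 and 18.1 RPKM with DMSO and 8.91, 13.1 and 8.46 RPKM with GSK343 (log2 fold change -1.04 ± 0.16, adjusted p = 0.00343). *Ltb*, the membrane-bound lymphotoxin subunit that organises lymphoid tissue, was at 35.1, 48.4 and 33.5 RPKM with DMSO and 13.8, 31.9 and 17.7 RPKM with GSK343 (log2 fold change -0.94 ± 0.19, adjusted p = 0.00928, and adjusted p = 0.106 without the block), and *Fcer2a*, the low-affinity IgE receptor CD23, at 77.4, 80.9 and 74.7 RPKM with DMSO and 31.7, 58.8 and 37.2 RPKM with GSK343 (log2 fold change -0.91 ± 0.22, adjusted p = 0.0217, and 0.058 without the block). For each of these 3 genes every GSK343 library was below every DMSO library, as for 7.52% of all genes tested, and the separation was part of the choice. *Fcer2a* was not called without the replicate 1 or 3 library of either group (adjusted p from 0.0737 to 0.0966), nor was *Msrb3*, a methionine sulfoxide reductase with a log2 fold change of -1.06 ± 0.25, without the replicate 1 or 2 library with DMSO or the replicate 1 or 3 library with GSK343 (0.0545 to 0.0752). *Cabp4* and *Grm6*, genes of retinal signalling, fell by 1.13 and 1.11 on the log2 scale, the former with adjusted p = 0.0565 without the block. *Gm13051*, a predicted zinc finger gene with close paralogs, is uncertain for that reason (log2 fold change -0.96 ± 0.17, adjusted p = 0.00631, and adjusted p = 0.0668 without the block).

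Cholesterol synthesis was the pathway in which most members fell. Of 25 tested genes, 15 were lower and none higher, beside 6.24% and 14.7% of all genes. All 25 had log2 fold changes below 0 (median -0.23). In 21 every GSK343 library lay below every DMSO library, as in 7.52% of all genes. *Cyp51*, which removes a methyl group from lanosterol, was measured at 93, 94.7 and 91 RPKM with DMSO and 72.4, 66.2 and 67.6 RPKM with GSK343 (log2 fold change -0.43 ± 0.04, adjusted p = 0.000676). *Msmo1*, a later sterol oxidase, was at 51.1, 56.3 and 54.2 RPKM with DMSO and 38.6, 38.4 and 40.6 RPKM with GSK343 (log2 fold change -0.46 ± 0.05, adjusted p = 0.000813), and *Nsdhl*, a dehydrogenase that works beside it, at 41.7, 46.5 and 39.3 RPKM with DMSO and 31.1, 31.5 and 28.8 RPKM with GSK343 (log2 fold change -0.48 ± 0.06, adjusted p = 0.00148). These 3 enzymes were lower in 3 of 3 pairs with no overlap. The 15 genes also held *Sqle*, a rate-limiting enzyme, and *Srebf2*, the transcription factor of the pathway. Without the block 11 were lower, and 8 without the replicate 3 library with DMSO, 9 without the replicate 2 or the replicate 3 library with GSK343.

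Interferon-stimulated genes fell within pairs, on a background that differed between pairs. Of 37 tested, 18 were lower and none higher, beside 6.24% and 14.7% of all genes, with a median of -0.29. In 3 of 3 pairs 28 were lower. The summed level of the list was 1248, 2166 and 1291 RPKM with DMSO and 1038, 1866 and 1154 RPKM with GSK343, so the replicate 2 libraries held more of these transcripts in both groups. Groups therefore overlapped for nearly all of the list, and 1 of 37 genes had GSK343 libraries wholly below DMSO libraries, beside 7.52% of all genes. *Oas3*, an antiviral enzyme that makes the signal for RNase L, was at 3.03, 15.4 and 3.43 RPKM with DMSO and 1.41, 8.57 and 1.77 RPKM with GSK343 (log2 fold change -0.89 ± 0.13, adjusted p = 0.00289). *Rtp4*, a receptor chaperone induced by interferon, was at 3.41, 10.8 and 3.17 RPKM with DMSO and 1.33, 6.37 and 1.54 RPKM with GSK343 (log2 fold change -0.96 ± 0.11, adjusted p = 0.00104). *Isg15*, a ubiquitin-like modifier singled out after its values were seen, was at 36.3, 48.4 and 34.2 RPKM with DMSO and 25.8, 34.9 and 25.4 RPKM with GSK343 (log2 fold change -0.46 ± 0.13, adjusted p = 0.0336). In all 3 genes the replicate 2 library with GSK343 lay above at least 1 DMSO library, while each pair fell. Without the block these calls were lost (adjusted p = 0.584, 0.449 and 0.416), and 1 gene of the list was lower. Left out singly, 5 of the 6 libraries reduced the 18 to between 9 and 11, and the replicate 2 library with GSK343 to 17; *Isg15* was lost without the replicate 1 or 3 library with DMSO and the replicate 2 or 3 library with GSK343 (0.0869 to 0.14).

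The promoters of *Oas3* and *Isg15* show the element by which such genes are recognised. Both windows come from RefSeq on GRCm38.p6 (chr5:120777610-120777909, minus strand for *Oas3*, and chr4:156200769-156201068, minus strand for *Isg15*) and run from 250 bases before to 50 after the start. Capitals mark matches to GAAANNGAAA, the core of the interferon-stimulated response element, searched on both strands.
Oas3: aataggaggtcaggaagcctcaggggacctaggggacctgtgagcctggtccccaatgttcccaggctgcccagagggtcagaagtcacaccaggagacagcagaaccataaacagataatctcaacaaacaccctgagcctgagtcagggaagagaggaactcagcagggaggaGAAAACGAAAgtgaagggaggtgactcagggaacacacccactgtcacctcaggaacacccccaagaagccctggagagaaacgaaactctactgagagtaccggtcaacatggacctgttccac
Isg15: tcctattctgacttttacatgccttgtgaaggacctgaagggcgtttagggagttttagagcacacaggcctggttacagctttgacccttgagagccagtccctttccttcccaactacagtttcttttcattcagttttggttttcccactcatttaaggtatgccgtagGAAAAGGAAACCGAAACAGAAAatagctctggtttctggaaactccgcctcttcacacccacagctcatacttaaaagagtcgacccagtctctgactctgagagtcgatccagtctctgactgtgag
*Oas3* holds 1 match, at bases 176 to 185 of its window, and *Isg15* holds 3 overlapping matches within bases 173 to 194. The motif occurred in 16 of the 26 interferon-stimulated genes with a window (61.5%), in 6 of the 10 of those that fell, and in 3.99% of the 27025 genes with a window. The matches describe these letters and no binding of a factor.

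**Figure D4:**
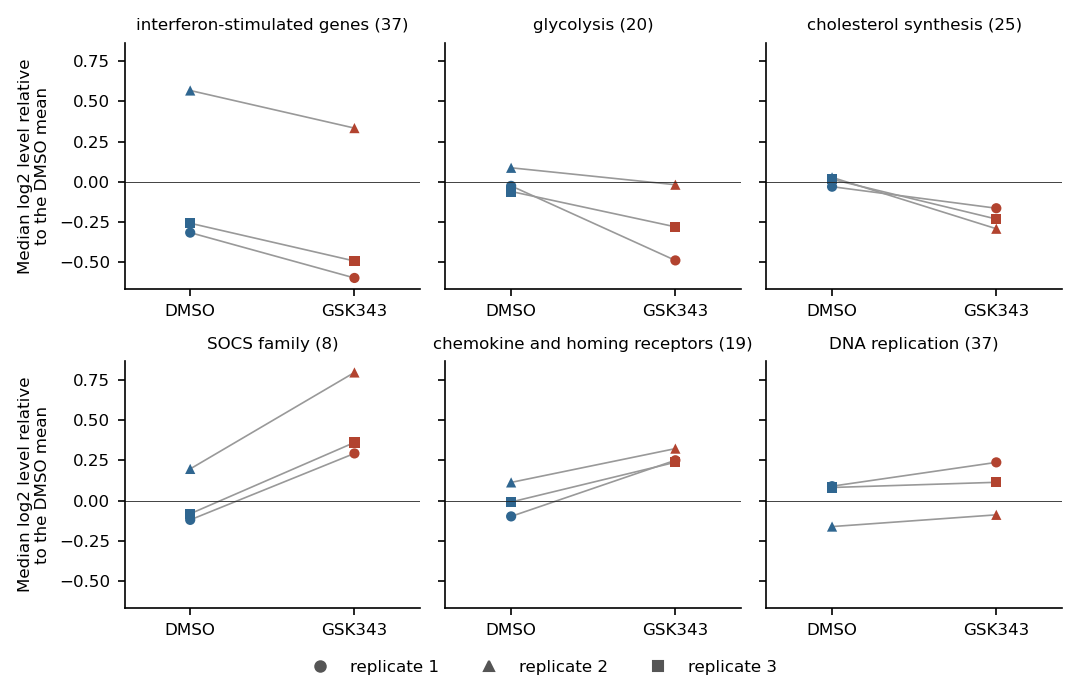
Median over each list's tested members of the log2 level relative to the mean of the DMSO libraries (vertical axis) in each of the 6 actB libraries, joined by replicate number, for 6 lists. Interferon genes are raised in both replicate 2 libraries and fall within each pair, whereas cholesterol genes are lower in all 3 GSK343 libraries.

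Glycolysis genes were lower in the same manner. Of 20 tested, 7 were lower and none higher, beside 6.24% and 14.7% of all genes, 19 lay below 0 and 18 fell in 3 of 3 pairs (median -0.24). *Aldoc*, an aldolase isoform, was at 32.4, 63.6 and 33.9 RPKM with DMSO and 11.8, 41.1 and 19.4 RPKM with GSK343 (log2 fold change -0.96 ± 0.19, adjusted p = 0.00909, and adjusted p = 0.279 without the block), with the replicate 2 libraries highest in either group and the groups overlapping. The other 6 that fell were *Pdk1*, which keeps pyruvate out of mitochondria, *Gpi1*, *Pgk1*, *Aldoa*, *Pfkp* and *Hk2*, the inducible hexokinase. With the block edgeR called 16 lower, and 11 had an unadjusted p under 0.05 in limma. Without the block no gene of the list was called in limma or in edgeR. The count fell to 1 without the replicate 1 or 3 library of either group and to 4 without the replicate 2 library with DMSO.

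Targets of ATF4, the factor of the amino acid response, gave 2 lower and none higher of 22, beside 6.24% and 14.7% of all genes (median -0.15). Of the 22, 21 lay below 0, but 8 were lower in 3 of 3 pairs. The list's median log2 level relative to the DMSO mean fell in pairs 1 and 3 and not in pair 2, where it was -0.26 with DMSO and -0.19 with GSK343. Without the replicate 2 library with DMSO 10 were lower, with median scaling 5, and in edgeR with the block 9. *Asns*, asparagine synthetase, was at 69.2, 50.4 and 57.7 RPKM with DMSO and 27.4, 37.3 and 30.9 RPKM with GSK343 (log2 fold change -0.88 ± 0.16, adjusted p = 0.00678), and *Cth*, which makes cysteine, at 14.1, 10.6 and 11.3 RPKM with DMSO and 4.47, 7.59 and 5.36 RPKM with GSK343 (log2 fold change -1.04 ± 0.20, adjusted p = 0.00825). Every GSK343 library was below every DMSO library, and the smallest change was in pair 2. The window of *Asns* around its RefSeq start (chr6:7693160-7693459, minus strand, GRCm38.p6) is given since it carries the ATF4-type motif TGATGNAA, in capitals at bases 228 to 235.
Asns: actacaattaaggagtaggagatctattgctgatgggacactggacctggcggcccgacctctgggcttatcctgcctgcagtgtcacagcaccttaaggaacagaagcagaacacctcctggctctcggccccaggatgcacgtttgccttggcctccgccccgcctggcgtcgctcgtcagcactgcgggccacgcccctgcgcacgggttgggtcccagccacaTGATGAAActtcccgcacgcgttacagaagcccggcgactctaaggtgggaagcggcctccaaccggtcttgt
On either strand, this motif was found in 7 of 19 ATF4 targets with a window (36.8%) and in 4.51% of all 27025 genes, again as a description of sequence alone.

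Among regulators of B cell and plasma cell identity, calls went in both directions, read against 14.7% higher and 6.24% lower of all genes. The 22 tested genes of the plasma cell program gave 8 higher and 3 lower (median 0.20), but 1 higher and 2 lower without the block, and 3 higher without the replicate 3 library with DMSO or 4 without the replicate 3 library with GSK343. *Xbp1*, the secretory pathway factor, was at 183, 191 and 196 RPKM with DMSO and 204, 219 and 237 RPKM with GSK343 (log2 fold change 0.21 ± 0.04, adjusted p = 0.0051, and adjusted p = 0.0753 without the block), with the groups apart. *Prdm1*, which encodes Blimp-1, had a log2 fold change of 0.20 ± 0.05 (adjusted p = 0.0239 in limma, 0.143 without the block), and was not called without the replicate 2 or 3 library with DMSO or the replicate 3 library with GSK343 (0.063 to 0.0998). *Irf4* was at 112, 107 and 109 RPKM with DMSO and 111, 109.8 and 125 RPKM with GSK343, overlapping and not called. *Sdc1* and *Jchain* passed the test at 0.41 and 0.37 and were each lost on leaving out any of 4 libraries (0.0635 to 0.107 and 0.0652 to 0.0918). In contrast *Slamf7*, a receptor of plasma cells, fell from 24.9, 27.3 and 23.7 RPKM to 17, 20.2 and 19.2 RPKM (log2 fold change -0.43 ± 0.07, adjusted p = 0.00413).

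In the B cell program, 3 of 30 genes were higher and 5 lower, beside 14.7% and 6.24% of all genes (median -0.07). With single libraries left out 1 to 3 were higher and 3 to 6 lower. *Bcl6*, the repressor of the germinal centre, rose from 7.2, 8.19 and 7.48 RPKM to 9.94, 10.8 and 9.81 RPKM (log2 fold change 0.41 ± 0.08, adjusted p = 0.00785). *Pax5*, the factor of B cell commitment, was at 186, 199 and 192 RPKM with DMSO and 177, 181 and 175 RPKM with GSK343, and *Bach2*, which delays plasma cell formation, at 23.7, 30.7 and 25.3 RPKM with DMSO and 30.3, 32.4 and 29.7 RPKM with GSK343. Neither passed the test in limma (adjusted p = 0.708 and 0.169), although the *Pax5* groups did not overlap. Signalling by the B cell receptor had 6 of 23 genes higher and 1 lower (median 0.01), but 3 higher and 2 lower with median scaling and 3 higher and 5 lower in edgeR with the block, so the balance of its calls turned with the scaling. Among them, *Lyn*, its kinase, was at 64, 69.4 and 67.6 RPKM with DMSO and 81.2, 75.5 and 78 RPKM with GSK343 (log2 fold change 0.22 ± 0.04, adjusted p = 0.00598) and *Fcgr2b*, its inhibitory Fc receptor, at 125, 153 and 137 RPKM with DMSO and 172, 168 and 179.8 RPKM with GSK343 (log2 fold change 0.33 ± 0.06, adjusted p = 0.00841), both without overlap. Only 2 of the 23 were higher without the replicate 1 or 3 library with DMSO or the replicate 3 library with GSK343, and *Fcgr2b* shares long stretches with *Fcgr3*. No gene of 15 for MHC class I presentation was called in limma, where 3 had an unadjusted p under 0.05, while edgeR with the block called 4 lower. Class II presentation gave 2 lower of 14, *H2-Ob* and *Ctss*. Both calls were lost without the block, the former also without any of 5 single libraries and the latter without any of 4.

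Inhibitors of cyclin-dependent kinases, classic targets of PRC2, moved in both directions, with 2 higher and 3 lower of 6 tested, beside 14.7% and 6.24% of all genes. *Cdkn2d* was at 11, 11.7 and 12.1 RPKM with DMSO and 17.7, 16.6 and 16.9 RPKM with GSK343 (log2 fold change 0.55 ± 0.08, adjusted p = 0.00206), and *Cdkn2c*, an inhibitor needed for plasma cell maturation, at 12.9, 11.4 and 14.2 RPKM with DMSO and 18.6, 14.4 and 17.8 RPKM with GSK343 (log2 fold change 0.39 ± 0.07, adjusted p = 0.00654). *Cdkn1b*, which encodes p27, fell from 42.8, 45.4 and 38.5 RPKM to 29, 38.2 and 31.2 RPKM (log2 fold change -0.37 ± 0.06, adjusted p = 0.0033). The groups of these 3 genes were separate. *Cdkn2a*, the locus of p16 and p19, which PRC2 is known to silence, was lower with GSK343 by the same amount in each pair, with 20.3, 24.6 and 18.5 RPKM with DMSO and 15.9, 19.3 and 14.5 RPKM with GSK343 (log2 fold change -0.35 ± 0.08, adjusted p = 0.0141). That call was lost without the block (0.131) and without the replicate 1 library with DMSO (0.0663) or the replicate 3 library with GSK343 (0.0661). *Cdkn2b* fell too (log2 fold change -0.43 ± 0.12, adjusted p = 0.04, and 0.0641 without the block), and was not called without any of 5 libraries, the replicate 3 library with DMSO excepted (0.0562 to 0.162). *Cdkn1a*, a p53 target, was at 12.4, 16.8 and 11.2 RPKM with DMSO and 15.6, 19.3 and 14.7 RPKM with GSK343 and was not called (adjusted p = 0.0632, and 0.0471 with the repeated library of naive B cells counted once in the filter on low levels). The p53 targets had 2 higher and 3 lower of 20, among the latter *Ccng1* (log2 fold change -0.25 ± 0.05, adjusted p = 0.00887) and *Ddb2*, a DNA repair gene (log2 fold change -0.28 ± 0.05, adjusted p = 0.00722). Neither rise was called without the block, or without the replicate 1 library with DMSO or the replicate 1 or 3 library with GSK343.

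Proliferation genes had small fold changes, mostly above 0. Of 37 genes of DNA replication, 36 had log2 fold changes above 0, and the median was 0.09 against 0.028 for all genes tested. Only 5 were called, none lower, beside 14.7% higher of all genes. With single libraries left out, this count ran from 0 without the replicate 1 library with DMSO to 6 without the replicate 2 library with GSK343. It also turned with the scaling. Quantile normalization gave 7 higher and 1 lower, median scaling and edgeR with the block each 3 higher and 1 lower, and edgeR without the block 0 higher and 1 lower. Mitosis genes gave 4 of 32 higher and none lower (median 0.09), and 1 without the replicate 1 or 2 library with DMSO or the replicate 3 library with GSK343. At these counts of 5 and 4, neither list was called higher more often than all genes. *Myc*, a driver of growth, was at 35.1, 32.7 and 33.5 RPKM with DMSO and 30.8, 32.5 and 30.2 RPKM with GSK343 and was not called. In the BCL2 family of cell death regulators, 3 were higher and 2 lower of 15, beside 14.7% and 6.24% of all genes. *Bcl2l1*, which protects cells, rose (log2 fold change 0.25 ± 0.04, adjusted p = 0.00347), and *Bid*, which promotes death, fell from 28.4, 23.1 and 27.8 RPKM to 19.7, 17.1 and 18.7 RPKM (log2 fold change -0.50 ± 0.09, adjusted p = 0.00632). The rises also held *Bad* and *Pmaip1*, and the falls *Bbc3*, which likewise promote death, so such genes were called in both directions. The calls of *Pmaip1* and *Bbc3* were lost on leaving out single libraries.

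In the unfolded protein response and folding in the endoplasmic reticulum, 8 genes were higher and 2 lower of 32, beside 14.7% and 6.24% of all genes (median 0.10). Without any 1 library other than the replicate 2 library with GSK343, which left 7, 3 to 4 were higher. *Dnajc3*, a co-chaperone, was at 44.6, 40.4 and 41.2 RPKM with DMSO and 50.2, 46.8 and 49.1 RPKM with GSK343 (log2 fold change 0.21 ± 0.04, adjusted p = 0.00584), with the groups apart. *Edem2*, which marks misfolded glycoproteins, rose by a like amount (log2 fold change 0.24 ± 0.04, adjusted p = 0.00288, and adjusted p = 0.112 without the block). Oxidative phosphorylation had 3 higher of 34 and none lower, fewer than the 14.7% higher of all genes (median 0.02, below 0 with median scaling and edgeR). *Sdhc*, a subunit of succinate dehydrogenase, was the clearest of the 3, at 58.5, 53 and 57.7 RPKM with DMSO and 70.9, 67.8 and 69.5 RPKM with GSK343 (log2 fold change 0.30 ± 0.03, adjusted p = 0.000839). Lysosomal genes split into 7 higher and 4 lower of 33, beside 14.7% and 6.24% of all genes. None of the 4 was lower without the block, or without the replicate 1 library with DMSO or the replicate 1 or 3 library with GSK343, and 1 without either other DMSO library. *Hexa*, a hexosaminidase, was at 20.7, 23.7 and 23.6 RPKM with DMSO and 29, 33.6 and 31.9 RPKM with GSK343 (log2 fold change 0.47 ± 0.04, adjusted p = 0.000487), and *Lgmn*, a protease that processes antigens, at 61.8, 60.4 and 61 RPKM with DMSO and 78.8, 70.2 and 77.3 RPKM with GSK343 (log2 fold change 0.30 ± 0.05, adjusted p = 0.00314). Both were separate between the groups.

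Developmental genes that PRC2 silences in most tissues were hardly measured. Of 39 *Hox* genes, 1 reached the level for testing and was not called, and 21 had no read in the 6 libraries. Of 122 developmental transcription factors, 10 were tested, of which 2 rose and 1 fell, beside 14.7% and 6.24% of all genes, and 56 had no read. The fall, *Six5*, was lost without the replicate 1 or 2 library with DMSO or the replicate 1 or 3 library with GSK343 (adjusted p from 0.0508 to 0.0875 in limma). The rise of *Sox4* was lost without the replicate 1 library with DMSO (0.0503). *Bhlhe41*, a repressor in the circadian clock, was at 25.7, 29.5 and 27.1 RPKM with DMSO and 42.9, 38.1 and 38.5 RPKM with GSK343 (log2 fold change 0.53 ± 0.08, adjusted p = 0.00225), without overlap. Germline and meiosis genes gave 5 tested of 37 with none called in limma with the block or without it, none at an unadjusted p under 0.05, and 12 without a read. Of 19 imprinted genes tested, 4 rose and 1 fell, beside 14.7% and 6.24% of all genes, and 1 rose without the replicate 3 library of either group. At this depth 3 reads, the number that a count of 0 allows, correspond to 0.114 to 0.128 RPM, so lower levels could not be seen.

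Primed promoters are open in undivided B cells while their genes are silent, and a list of those marked by H3K27me3 in naive B cells was taken from the supplementary data, where it rests on other samples. It names 109 genes, some with more than 1 such promoter. Of its 102 genes tested here, 19 were higher and 11 lower, beside 14.7% and 6.24% of all genes. The median was 0.01, and it lay below 0 with median scaling, quantile normalization and edgeR. Leaving out 1 library left 12 to 17 higher and 4 to 18 lower. *Kif5c*, a kinesin of axons, was at 0.611, 0.509 and 0.452 RPKM with DMSO and 0.995, 0.913 and 1.08 RPKM with GSK343 (log2 fold change 0.69 ± 0.12, adjusted p = 0.00537), and *Xkr5*, a membrane protein, at 1.11, 1.09 and 1.08 RPKM with DMSO and 1.6, 1.66 and 1.6 RPKM with GSK343 (log2 fold change 0.48 ± 0.07, adjusted p = 0.00267). Both sets of GSK343 libraries lay above the DMSO libraries. *Fndc3b*, at 0.52 ± 0.10, and *Tspan5*, at 0.30 ± 0.04, rose by less, as did *Dusp4*, at 0.30 ± 0.05, and all 3 remained called without the block. *E2f7*, a repressor of the cell cycle (log2 fold change 0.50 ± 0.09, adjusted p = 0.00561), and *Etfa*, an electron carrier of mitochondria (log2 fold change 0.21 ± 0.03, adjusted p = 0.00145), were lost without it (0.0728 and 0.068). Among those that fell was *Zik1*, a zinc finger gene (log2 fold change -0.35 ± 0.06, adjusted p = 0.00611, and adjusted p = 0.213 without the block). The largest rise and the largest fall of this list, *Atp1b1* (1.2) and *Cth* (-1.04), are described above with other lists. *Prdm1*, among the rises, and *Pgk1* and *Hk2*, among the falls, are named there too. *Rgcc* was also called higher, but not without the replicate 2 or 3 library with DMSO or the replicate 1 or 2 library with GSK343.

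Markers of other cell types were counted because some of the rising genes are known from such cells, and the part of such cells in the results was not tested. Of 23 tested myeloid markers, 5 were higher (*Itgam*, *Adgre1*, *Mrc1*, *Fcer1g* and *Fcgr3*) and none lower, beside 14.7% and 6.24% of all genes. The count was 3 without the replicate 1 library with DMSO or the replicate 1 or 3 library with GSK343. The summed level of the 32 in the table was 18.6 to 20.7 RPKM with DMSO and 26.0 to 30.4 RPKM with GSK343. Of the 32, 22 stayed below 0.5 RPKM in all 6 libraries and 7 had no read, among them the neutrophil genes *S100a8* and *S100a9*, while *Csf1r* and *C1qa* of macrophages reached at most 0.0484 and 0.0379 RPKM. *Adgre1*, which encodes F4/80, rose from 0.127, 0.147 and 0.168 RPKM to 0.486, 0.419 and 0.405 RPKM (log2 fold change 0.79 ± 0.10, adjusted p = 0.00149), which is still low. *Fcer1g* was at 1.6, 1.39 and 1.31 RPKM with DMSO and 2.08, 2.34 and 2.13 RPKM with GSK343. For T and NK cells, 2 of 21 tested markers were higher, *Thy1* and *Lck*, and none without the replicate 3 library of either group. That list summed to 12.9 to 16.2 RPKM with DMSO and 16.6 to 22.6 RPKM with GSK343, with *Cd3e* at no more than 0.0286 RPKM and *Cd4* at no more than 0.0261 RPKM. Erythroid and platelet markers summed to 10.3 to 14.4 RPKM with DMSO and 11 to 20.7 RPKM with GSK343, with 1 of 6 tested higher.

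In plasmablasts, 1535 genes were higher with GSK343 (13.6%) and 1205 lower (10.7%) in the same fit. The sources disagree on the medium of Pb with GSK343, since a sample label names Il6 there, whereas the protocol text and the study's methods give Il5 for every culture. Which is right could not be settled here, and if the label holds, drug and cytokine cannot be told apart in Pb. Listed side by side, cholesterol synthesis had 15 of 25 genes lower in actB and 20 in Pb, interferon-stimulated genes 18 and 19 of 37, and glycolysis 7 and 14 of 20. The SOCS family had 6 of 8 higher in actB and 3 in Pb, and p53 targets 2 of 20 higher in actB and 12 in Pb. A test of the difference itself called 83 genes (0.735%), with the effect higher in actB for 54 and lower for 29, and 1832 had an unadjusted p under 0.05. Without the block, limma called 4 and edgeR 6.

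*Socs2* rose by 1.44 ± 0.05 in actB and 0.76 ± 0.05 in Pb (difference 0.67 ± 0.08, adjusted p = 0.0158), and *Ifitm1* by 2.24 ± 0.10 and 1.16 ± 0.10 (difference 1.08 ± 0.14, adjusted p = 0.0178). *Csf2rb2* rose in actB and had a log2 fold change of -0.34 ± 0.07 in Pb (difference 1.1 ± 0.10, adjusted p = 0.0109). In these 3 genes the effect was the larger in actB. *Gpnmb*, a glycoprotein of lysosomes, rose by 0.98 ± 0.07 in actB from below 0.2 RPKM and by 1.93 ± 0.07 in Pb (difference -0.95 ± 0.10, adjusted p = 0.013). *Fcer1g*, the signalling chain of Fc receptors, had 0.53 ± 0.10 in actB and 1.70 ± 0.10 in Pb (difference -1.16 ± 0.15, adjusted p = 0.0178), and *Ccr10* 1.15 ± 0.09 and 2.10 ± 0.09 (difference -0.96 ± 0.13, adjusted p = 0.0244). For these the larger rise was in Pb. Each of these 6 differences was lost when at least 2 of the 6 actB libraries were left out in turn, and 0 genes were called without the replicate 3 library with DMSO or without that with GSK343 in limma, where 1495 and 1356 genes had an unadjusted p under 0.05. *Ccl4*, by contrast, rose by 2.65 ± 0.10 and 2.70 ± 0.10, and the difference did not pass (adjusted p = 0.899).

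**Figure D5:**
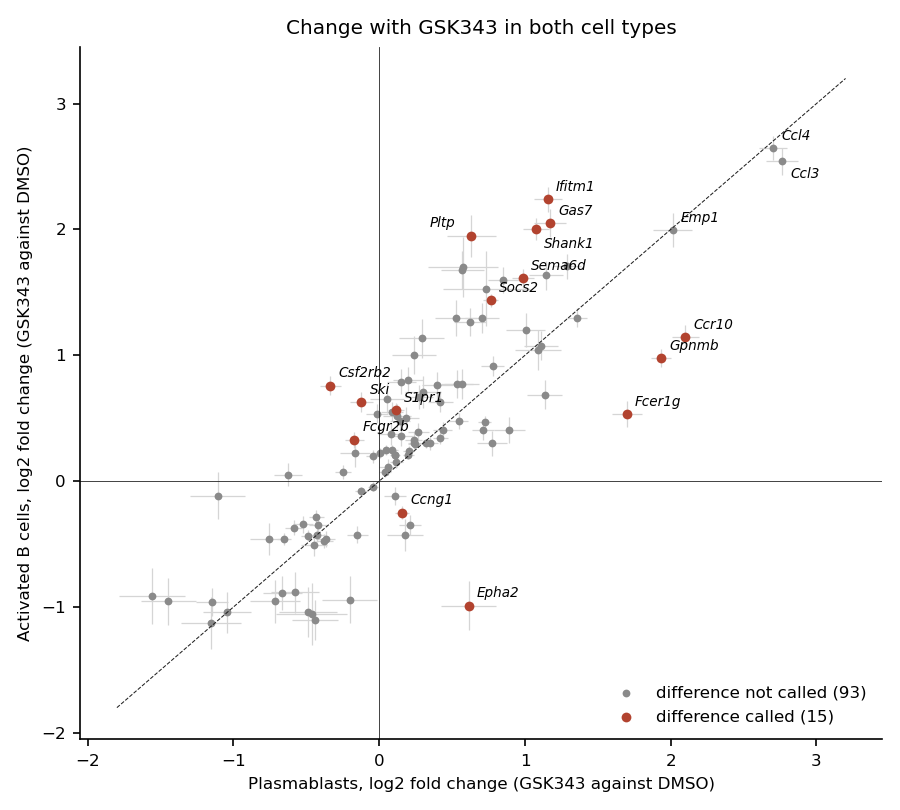
Log2 fold change of GSK343 over DMSO in actB (vertical axis) and in Pb (horizontal axis), each with its SE, for 108 genes, with a dashed line of equal change. The 15 genes whose difference was called are marked apart from the rest, and *Socs2*, *Ifitm1* and *Pltp* lie above the line while *Gpnmb*, *Fcer1g* and *Ccr10* lie below it.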

How the data were processed

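RNA-seq of poly(A) RNA, prepared with a stranded kit, was analysed for actB and Pb with DMSO or GSK343, 3 libraries a group. Per the paper's methods and the labels, the authors mapped reads to mm9 with TopHat2 and counted those over exons of each Entrez gene. Whether counting used strand is not given in the sources used here, and antisense partners, as for *Ezh2* and *Grm6*, could share reads. The deposited values are RPM. All values were whole multiples of 1 read (tolerance 0.0005 RPM), so reads were recovered, and RPKM was computed as RPM per kilobase of the deposited length. The 92 genes without a symbol were left out.

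Genes with at least 1 RPKM in at least 3 of 15 columns entered a limma fit (version 3.58.1, R 4.3.3, trend, log2(RPKM + 0.25), 12 cultured libraries, group and replicate number as terms). Pairing by replicate number was set in advance for this comparison. Same-numbered actB libraries correlated at r = 0.502, 0.713 and 0.356, against -0.603 to 0.370 between numbers, so number 3 did not stand out. The titles alone give the numbers, so p-values measure the spread between these libraries. All p-values are two-sided, adjusted by Benjamini-Hochberg over the genes tested, and errors of fold changes are SE. Fold changes of low genes are understated by the added 0.25. Alternatives included edgeR 4.0.16 on the recovered reads (3 RPM in 3 libraries), other scalings, pseudocounts of 1 and 0.05, and libraries left out. The procedure was tested on simulated data.

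Named genes were the 14 largest rises and 10 largest falls among called genes with at least 3 RPM in a group and separate groups, called genes of each list (the extreme 3 each way where more than 6 were called), and a set of PRC2 and plasma cell genes. Members of a list named without values illustrate its calls, and a few genes that these rules name are not reported here. The members and lists were chosen with earlier results of these data known. Promoters of 300 bases came from a RefSeq table (GRCm38.p6) that held 79.3% of tested genes, so a comparison of CpG content would be void and is not given. Gene positions are in mm9 (GENCODE vM1), 1-based. nB libraries entered the filter and 1 alternative fit. Replicates 1 and 2 of nB are the same library and both counted in the filter, through which 433 genes were tested that reached 1 RPKM in fewer than 3 cultured libraries.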

Additional observations from a re-analysis of the deposited data

Results flagged for a closer look

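For 15 reported genes the change with GSK343 differed between actB and Pb in the test of the difference itself (limma with the replicate block). The log2 fold change in actB minus that in Pb was above 0, given with its adjusted p, for *Ifitm1* 1.08 (adjusted p = 0.0178), *Gas7* 0.88 (adjusted p = 0.0444), *Shank1* 0.929 (adjusted p = 0.0244), *Pltp* 1.32 (adjusted p = 0.0486) and *Sema6d* 0.63 (adjusted p = 0.0444). It was also above 0 for *Socs2* 0.673 (adjusted p = 0.0158), *Csf2rb2* 1.1 (adjusted p = 0.011), *S1pr1* 0.451 (adjusted p = 0.0444), *Ski* 0.752 (adjusted p = 0.0279) and *Fcgr2b* 0.499 (adjusted p = 0.0486). It was below 0 for *Epha2* -1.6 (adjusted p = 0.0438), *Ccr10* -0.955 (adjusted p = 0.0244), *Ccng1* -0.408 (adjusted p = 0.0438), *Gpnmb* -0.954 (adjusted p = 0.013) and *Fcer1g* -1.16 (adjusted p = 0.0178). In 5 genes the fold changes had opposite signs, with actB given before Pb for *Epha2* (-0.99 and 0.61), *Csf2rb2* (0.76 and -0.34), *Ski* (0.63 and -0.12), *Fcgr2b* (0.33 and -0.17) and *Ccng1* (-0.25 and 0.16). Without the block the difference passed in *Socs2* and *Fcer1g* and in none of the others. Leaving out single actB libraries ended the call in 2 of 6 settings at the least (*Ifitm1*, *Socs2*, *Csf2rb2* and *Gpnmb*) and in all 6 at the most (*Gas7*, *Sema6d*, *S1pr1* and *Ccng1*). *Csf2rb2* has a near-identical copy, and *Fcgr2b* shares sequence with *Fcgr3*. *Gpnmb* and *Ccr10* were low in actB with DMSO, where the added 0.25 understates fold changes. A sample label gives Il6 for the Pb libraries with GSK343, while the protocol text and the methods give Il5 for all cultures. If the label holds, drug and cytokine cannot be told apart in any of these differences.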

How the results depend on the processing

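The number of genes called in actB, 2368, stayed within 1.5 times under other pseudocounts, filters, scalings and variance models and under edgeR with the block. No block gave 1118 genes with 12 libraries and 1170 with 14, and edgeR without the block 1146. Leaving out 1 actB library gave 1179 to 2077, the lowest without the replicate 3 library with GSK343, and leaving a replicate number out of every group gave 56 to 1983, the lowest without number 3. Of 98 called genes followed through the alternatives, 88 held their call without each actB library. Without the block 25 were not called, and no other call among them changed with it. Many of the 98 were chosen for large changes or separate groups, so this share does not carry over to all calls. Among list members, 8 of 18 interferon calls, 1 of 7 glycolysis calls and 0 of 5 DNA replication calls held without each library. Some genes named without values also lost their call. No reported gene changed sign under the alternatives run. Without the block fewer members were called higher among actin regulators (7 in place of 11), ion pumps and channels (4 in place of 8), TGF-beta and BMP genes (4 in place of 7), DNA replication (1 in place of 5), mitosis (none in place of 4, in limma and in edgeR), the unfolded protein response (1 in place of 8) and primed promoters (9 in place of 19, with 2 lower in place of 11).

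The 83 genes whose effect differed between actB and Pb became 134 with the repeated nB library counted once in the filter (chosen after seeing the data, and with fewer genes tested), 129 with a pseudocount of 1, 170 with a filter of 3 RPM, 125 with quantile normalization, 147 with robust eBayes, 293 and 281 in edgeR with the block and TMM or RLE factors, 28 without the block in 14 libraries, 4 in 12, and 6 in edgeR without the block. Leaving out libraries or replicate numbers gave 0 to 95. With 3 libraries a group, differences below the spread between pairs were not detectable.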
